A study of Mus musculus with 9 samples.

Results

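The genes described here make superoxide, hydrogen peroxide or nitric oxide: the NADPH oxidase catalytic subunits Cybb, Nox1, Nox4, Duox1 and Duox2, the membrane partner Cyba, the cytosolic subunits Ncf1 and Ncf4, and the inducible nitric oxide synthase Nos2. These 9 genes were chosen by name, with earlier results of these data known. Counts of them set beside shares of all genes or probes are therefore descriptive. Each gene was read from the brightest of its probes over all arrays. Of the 9, 8 were found among the 19698 genes measured. No probe was matched to Duox2, which is not analysed here. The RNA came from lungs of male C57BL/6 mice whose age the labels give as 10 weeks. Whether this was the age at irradiation or at tissue collection was not determined, so age at collection can differ between arrays. Of the arrays, 4 were labeled control and 5 were labeled as irradiated left lung. The labels place the anesthesia, 30 mg/kg zoletil with 10 mg/kg rompun, at the time of irradiation, and the methods took control lungs from mice that were not irradiated. Neither dose, lung region nor time after irradiation is in the labels of any array, so the 5 irradiated arrays can differ in all of these and their spread includes any such difference. The methods describe pooled RNA, so an array is a pool and not 1 mouse, and the p-values below measure only the spread between these arrays, which may be partly technical.

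In phagocytes, Cybb and Cyba form the membrane core of the oxidase that produces the respiratory burst. Ncf1 and Ncf4 move to that core when the cell is activated, together with the small GTPase Rac2. Nox1 and Nox4 are related catalytic subunits of non-phagocytic cells that also pair with Cyba, whereas Duox1 and Duox2 depend on their own maturation factors and supply peroxide at airway surfaces. Nos2 is induced in macrophages and epithelium by cytokines and microbial products, and like the other nitric oxide synthases it needs tetrahydrobiopterin as a cofactor.

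The lung identity of the RNA was read from Sftpc, surfactant protein C of type II alveolar cells, which was well above background on all 9 arrays at the top of the signal range, where quantile normalization fixes the values (19.36 or 19.43 on the log2 scale), so that they do not compare its amount between arrays. Between 72.8% and 89.1% of spots per array were called well above background, and no spot was saturated. A pair of arrays stood apart from the rest in markers of other tissues. The control 3 array had a mean of 4.44 for 8 skeletal muscle genes, on the log2 scale relative to the control mean, while the other arrays lay between -2.18 and -1.04. The irradiated 1 array had a mean of -5.64 for 8 cardiac muscle genes against -0.52 to 0.54 on the others, and a mean of -2.71 for 7 airway secretory genes against -0.95 to 0.31 on the others.

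Transcripts of the phagocyte oxidase and of Nos2 were on average higher in the irradiated arrays, but the difference passed the threshold for none of the 8 genes in the comparison of all 9 arrays without a block. Cybb, or Cyba and Nos2, passed it in fits that took account of pairs of arrays with similar scan images, described below. The largest rise in the mean was 0.57 on the log2 scale for Nos2 (SE 0.25, a 1.49-fold difference), followed by Cyba, Ncf1 and Cybb with 0.27, 0.27 and 0.26. Nox4 and Nox1 differed by -0.01 and 0.03, and both of these signs turned when arrays were scaled to their 75th percentile in place of quantile normalization. Duox1 was 0.55 lower on average. Whether more cells or more RNA per cell lies behind a value cannot be told apart in RNA from whole tissue. By limma with adjustment over all 39302 probes, 0 of the 8 genes had an adjusted p under 0.05, where 0.333% of all probes did. At an unadjusted p under 0.05, 2 of the 8 were counted, Cyba and Nos2, beside 9.94% of all probes. In 0 of the 8 genes did all irradiated arrays lie above all control arrays, a pattern seen in 3.40% of genes, and in 0 of the 8 did they all lie below, a pattern seen in 1.76%. The median difference of the 8 genes was 0.16, beside 0.0085 for all genes. Of all genes, 51.9% had a difference above 0, the share to set beside counts of higher and lower genes in the lists below. Genes of a list were read on the same arrays, so such counts are not made of independent values.

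**Figure D1:**
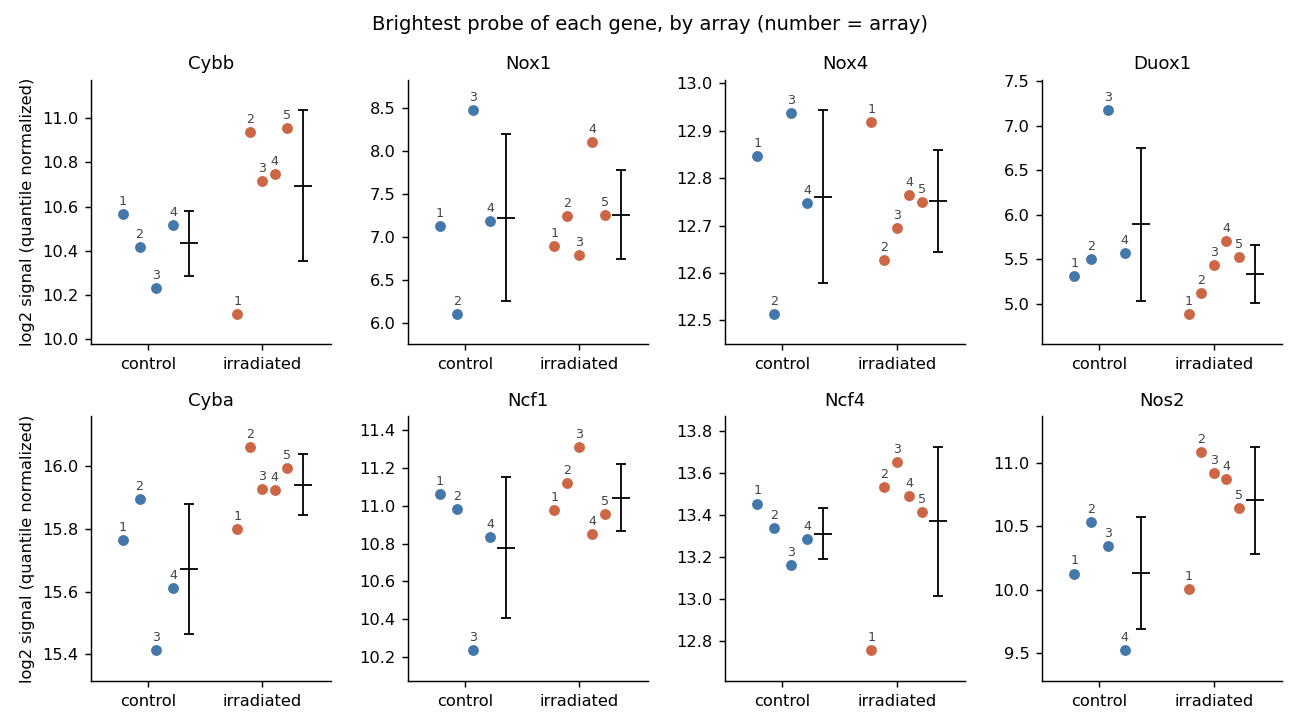
Log2 quantile-normalized signal of the brightest probe of each of the 8 measured genes on every array, in blue for the 4 control and orange for the 5 irradiated arrays, with the array number above each point and the mean ± SD as a black bar at the right of each group. Irradiated 1 is the lowest irradiated array for Cybb (10.12), Cyba (15.80), Ncf4 (12.75) and Nos2 (10.01), and control 3 is the highest control array for Nox1 (8.48) and Duox1 (7.17). Each panel has its own scale, which does not start at 0.

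The promoters of the 3 phagocyte subunits with the larger mean differences (Cybb, Cyba and Ncf1), none of which passed the threshold, and that of Nox4, whose mean hardly differed, are shown as the regulatory sequence of the genes the comparison turns on. The windows run from 250 bases before to 50 after the annotated start and come from the RefSeq promoter table of assembly GRCm38.p6, all 5′ to 3′ on the gene's strand. The searched letters were GAAANNGAA for the interferon response element, TTCNNNGAA for the gamma-activated site, GGGACTTTC and GGAATTTCC for NF-kappaB, and AGAGGAAG and GAGGAAGT for PU.1, on both strands, and capitals mark every match. The windows are chrX:9469275-9469574 on the minus strand, chr8:122432891-122433190 on the minus strand, chr5:134229576-134229875 on the minus strand and chr7:87246399-87246698 on the plus strand.
Cybb: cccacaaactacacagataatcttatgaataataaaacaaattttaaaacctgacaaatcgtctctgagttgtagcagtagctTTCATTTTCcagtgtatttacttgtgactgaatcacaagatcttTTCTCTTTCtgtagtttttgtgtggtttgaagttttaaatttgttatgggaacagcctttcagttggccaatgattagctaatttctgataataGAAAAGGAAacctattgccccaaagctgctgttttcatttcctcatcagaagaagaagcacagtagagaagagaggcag
Cyba: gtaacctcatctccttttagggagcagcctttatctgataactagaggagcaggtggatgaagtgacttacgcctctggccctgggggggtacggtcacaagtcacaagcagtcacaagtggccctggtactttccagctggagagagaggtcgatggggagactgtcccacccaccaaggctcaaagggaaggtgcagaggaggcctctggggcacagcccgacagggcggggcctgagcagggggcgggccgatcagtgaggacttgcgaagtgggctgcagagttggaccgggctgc
Ncf1: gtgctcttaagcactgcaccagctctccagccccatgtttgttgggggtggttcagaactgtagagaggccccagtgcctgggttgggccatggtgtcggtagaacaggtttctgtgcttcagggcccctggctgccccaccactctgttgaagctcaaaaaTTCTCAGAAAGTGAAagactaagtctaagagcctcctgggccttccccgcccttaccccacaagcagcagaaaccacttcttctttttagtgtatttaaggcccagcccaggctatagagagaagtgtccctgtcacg
Nox4: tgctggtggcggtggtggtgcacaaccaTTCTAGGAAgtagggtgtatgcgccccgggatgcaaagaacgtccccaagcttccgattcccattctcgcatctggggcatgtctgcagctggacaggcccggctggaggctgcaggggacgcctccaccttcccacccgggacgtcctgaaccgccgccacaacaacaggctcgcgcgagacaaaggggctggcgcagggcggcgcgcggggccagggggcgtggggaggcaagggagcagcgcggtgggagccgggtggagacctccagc

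The Cybb window held 3 matches to GAAANNGAA, 2 of them on the opposite strand. Ncf1 held 1 match to it and 1 match to TTCNNNGAA, and these overlap. Nox4 held 1 match to TTCNNNGAA. The windows of Cyba, Nox1, Duox1 and Duox2 held no match to any of these letters, nor did that of Gch1, the partner gene described below that passed the threshold, and no window was given for Ncf4 and Nos2. Thus 2 of the 7 windows held GAAANNGAA, which 8.56% of the table's 32851 promoters hold, and 2 of the 7 held TTCNNNGAA, which 8.30% hold. The NF-kappaB letters were in 0 of the 7 windows and 0.67% of all, and the PU.1 letters in 0 of the 7 and 6.68% of all. A match describes letters and not a bound site.

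Cybb encodes gp91phox, the electron-carrying catalytic subunit of the phagocyte oxidase. Its log2 values were 10.57, 10.42, 10.23 and 10.52 on control arrays 1 to 4, and 10.12, 10.94, 10.72, 10.75 and 10.96 on irradiated arrays 1 to 5. Irradiated 1 had the lowest value of all 9 arrays, while the other irradiated arrays all lay above every control array. The means were 10.43 ± 0.15 (SD, n = 4) and 10.69 ± 0.34 (SD, n = 5). The difference of 0.26 (SE 0.17, 95% interval -0.12 to 0.64) had a limma adjusted p of 0.708. The two-sided exact permutation test over all splits of the arrays into groups of these sizes, whose smallest possible p is 0.00794, gave p = 0.198. Without irradiated 1 the difference was 0.40 (SE 0.11) with a limma adjusted p of 0.163, and with the scan pair as a fixed block the limma adjusted p was 0.0470. With the authors' normalized table the difference was 0.12.

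Cyba encodes p22phox, which stabilizes Cybb, Nox1 and Nox4 in the membrane. The brightest of its probes measured 15.76, 15.89, 15.41 and 15.61 on control arrays 1 to 4, and 15.80, 16.06, 15.93, 15.92 and 15.99 on irradiated arrays 1 to 5. The groups overlapped only through irradiated 1, which lay below control 2 and above the other control arrays. The difference was 0.27 (SE 0.10, 95% interval 0.04 to 0.50), with a limma adjusted p of 0.392 and an exact permutation p of 0.0238. A second probe of Cyba gave 12.28 ± 0.40 (SD, n = 4) in the control arrays and 12.81 ± 0.14 (SD, n = 5) in the irradiated arrays. On that probe control 1, at 12.82, was higher than 3 of the irradiated arrays, and the difference was 0.53 (SE 0.17), with a limma adjusted p of 0.286 and an exact permutation p of 0.0397. Both probes of Cyba were therefore higher on average, and neither passed the threshold. The difference of the brightest probe was 0.18 without control 3, the lowest control array, and with the scan pair as a random block its limma adjusted p was 0.0486. It was also 0.18 with the authors' normalized table.

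Ncf1 encodes p47phox, the organizer subunit that links the cytosolic complex to the membrane. It measured 11.06, 10.98, 10.23 and 10.83 on control arrays 1 to 4, and 10.98, 11.12, 11.31, 10.85 and 10.96 on irradiated arrays 1 to 5. Control 3 was low and the other control arrays lay within or near the irradiated range. The difference was 0.27 (SE 0.17, 95% interval -0.12 to 0.65), with a limma adjusted p of 0.704 and an exact permutation p of 0.206, and it was 0.08 without control 3.

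Ncf4 encodes p40phox, which binds a membrane lipid of phagosomes and sustains oxidase activity there. It measured 13.46, 13.34, 13.16 and 13.29 on control arrays 1 to 4, and 12.75, 13.53, 13.66, 13.49 and 13.41 on irradiated arrays 1 to 5. As for Cybb, the irradiated 1 array was below all others, whereas the remaining irradiated arrays sat at the top of the control range or above it. The difference was 0.06 (SE 0.17, 95% interval -0.32 to 0.44), with a limma adjusted p of 0.970 and an exact permutation p of 0.825. It was 0.21 (SE 0.09) without irradiated 1, with a limma adjusted p of 0.440, and -0.01 without irradiated 3.

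Nos2 had the largest rise in the set, close in size to the fall of Duox1 (-0.55). Which of them was larger depended on the processing. Duox1 was, with scaling to the 75th percentile (-0.75 against 0.53) and with the authors' table (-0.38 against 0.29). Nos2 was, with normexp background correction (0.55 against -0.27). The log2 values of Nos2 were 10.13, 10.53, 10.35 and 9.52 on control arrays 1 to 4, and 10.01, 11.08, 10.92, 10.87 and 10.64 on irradiated arrays 1 to 5. Irradiated arrays 2 to 5 lay above all control arrays, and irradiated 1 fell inside the control range. The means were 10.13 ± 0.44 (SD, n = 4) and 10.70 ± 0.42 (SD, n = 5), a difference of 0.57 (SE 0.25, 95% interval 0.01 to 1.14). The limma adjusted p was 0.493 and the exact permutation p was 0.0952. Without control 4, the lowest array, the difference was 0.37, and without irradiated 1 it was 0.74 (SE 0.21) with a limma adjusted p of 0.166. With the scan pair as a random block the limma adjusted p of Nos2 was 0.0418, and with the authors' normalized table the difference was 0.29.

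Irradiated 1 thus set the overlap for several genes at once. Without this array, 3 of the 8 genes (Cybb, Cyba and Nos2) had all irradiated arrays above all control arrays, where 5.47% of genes did. By limma 0 of the 8 then had an adjusted p under 0.05, where 485 of 39245 probes did. Without control 2, 1 of the 8 genes (Cyba) had groups that no longer overlapped, where all irradiated arrays lay above in 5.33% of genes.

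Nox4 is an oxidase of fibroblasts, endothelium and smooth muscle that produces hydrogen peroxide constitutively. It measured 12.85, 12.51, 12.94 and 12.75 on control arrays 1 to 4, and 12.92, 12.63, 12.70, 12.76 and 12.75 on irradiated arrays 1 to 5. The irradiated values all fell inside the control range. The difference was -0.01 (SE 0.10). On this probe, its 95% interval of -0.24 to 0.22 bounds a change of the mean to between 0.85 and 1.16 times the control signal. A second Nox4 probe differed by -0.15 (SE 0.11), with a limma adjusted p of 0.743 and an exact permutation p of 0.0714. The 95% interval of that probe, -0.40 to 0.09, runs from 0.76 to 1.07 times the control signal and so reaches lower. Of the markers of these cell types, the 8 of fibroblasts had a median difference of 0.34, with 6 higher, 2 lower, 1 past the threshold and 3 at an unadjusted p under 0.05, beside 0.333% and 9.94% of all probes. The 8 of endothelium had a median of -0.20, with 3 higher and 5 lower, and the 7 of smooth muscle had a median of -0.53, with 0 higher and 7 lower, and neither list held a gene past the threshold by limma (1 of 8 and 3 of 7 at an unadjusted p under 0.05). The part of these cell types in the Nox4 value was not tested.

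Nox1 is an oxidase of epithelium and smooth muscle. Its brightest probe measured 7.13, 6.11, 8.48 and 7.19 on control arrays 1 to 4, and 6.90, 7.24, 6.79, 8.11 and 7.26 on irradiated arrays 1 to 5. The control arrays alone spanned more than all the irradiated arrays did, with control 3 the highest and control 2 the lowest of the 9. The difference of 0.03 (SE 0.44) had a 95% interval of -0.95 to 1.01, and its sign turned under several processing settings. It was 0.46 without control 3 and -0.34 without control 2. The second probe of Nox1 was not well above background on any array.

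Duox1, the dual oxidase of airway epithelium, was dim and was well above background on 3 of 4 control and 4 of 5 irradiated arrays. Its mean over 10 spots was 5.32, 5.50, 7.17 and 5.57 on control arrays 1 to 4, and 4.89, 5.12, 5.44, 5.70 and 5.53 on irradiated arrays 1 to 5. Control 3 was far above every other array, and the remaining control arrays lay within the irradiated range. The difference of -0.55 (SE 0.38) had a 95% interval of -1.40 to 0.29 and a limma adjusted p of 0.720, and the exact permutation p was 0.214. It was -0.13 without control 3, the array with the high skeletal muscle genes, whose part in the Duox1 value was not tested. With normexp background correction it was -0.27. In the list of 7 measured airway secretory markers, all 7 were lower in the irradiated arrays, with a median of -1.12, 2 of them with all irradiated arrays below all control arrays, beside 1.76% of genes, and 0 past the threshold by limma (4 at an unadjusted p under 0.05, beside 9.94% of all probes). The list means spanned -0.19 to 0.31 in control arrays against -2.71 to -0.74 in irradiated arrays, and their part in the Duox1 value was not tested.

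**Figure D2:**
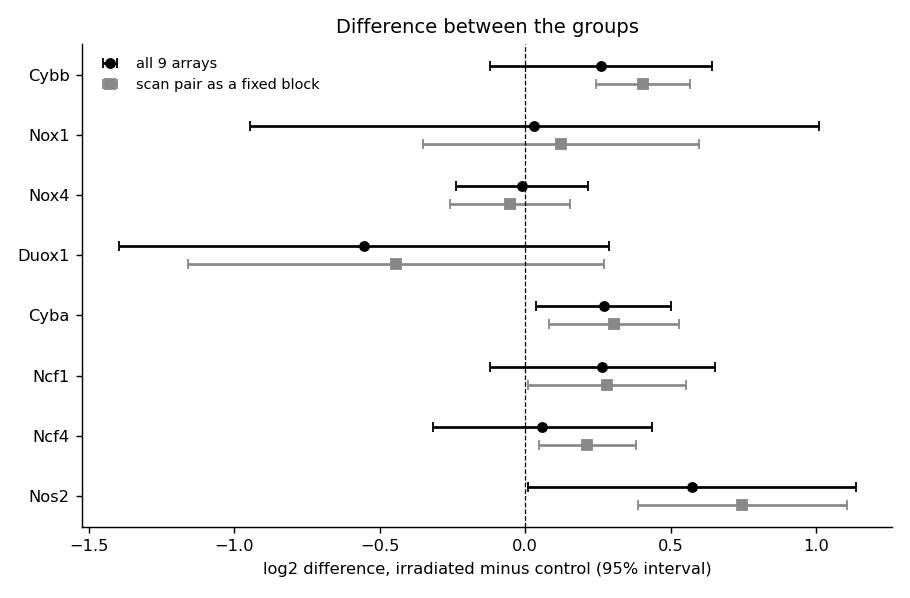
Difference between irradiated and control arrays on the log2 scale with its 95% interval, for all 9 arrays (black circles) and with the scan pair as a fixed block (gray squares). With all arrays, the intervals of Cyba and Nos2 leave out 0, and with the block those of Cybb, Cyba, Ncf1, Ncf4 and Nos2 do; these intervals are not adjusted for the number of probes.

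Some arrays resembled each other in the geometry of their scan images, and they are called scan pairs here. Control 1 shared the tilt, vertical position and background of its scan image with irradiated 2, control 2 with irradiated 3, control 3 with irradiated 4 and control 4 with irradiated 5, while irradiated 1 matched none. No label or file header names these 4 pairs as a batch, and whether the arrays of a pair were hybridized or scanned together is not known. Within a pair, the deviations of the arrays from their group means correlated across probes with r = 0.285, 0.201, 0.331 and 0.455. Each scan pair holds 1 control and 1 irradiated array, so the difference could be read inside it.

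Within scan pairs, 5 of the 8 genes (Cybb, Cyba, Ncf1, Ncf4 and Nos2) were higher in the irradiated array in all 4 pairs, where 17.9% of genes were. For Cybb the 4 differences were 0.37, 0.30, 0.51 and 0.44. For Nos2 they were 0.95, 0.38, 0.53 and 1.12. Cyba ranged from 0.03 to 0.51, Ncf1 from 0.06 to 0.61 and Ncf4 from 0.08 to 0.33. The subunits Cyba, Ncf1 and Ncf4 thus had at least 1 pair in which the difference was 0.08 or less, whereas Cybb and Nos2 did not. Nox1 was higher in 3 pairs and Nox4 in 2. Duox1 was lower in all 4 pairs, as were 17.3% of genes, with -1.47 in the pair of control 3 and -0.19 to -0.05 in the others.

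With the scan pair as a fixed block, which leaves irradiated 1 without weight, 1 of the 8 genes had an adjusted p under 0.05 by limma, where 2.81% of all probes did. That gene was Cybb, with a difference of 0.41 (SE 0.06, 95% interval 0.24 to 0.57) and a limma adjusted p of 0.0470. With the scan pair as a random block, 2 of the 8 passed, where 7.37% of all probes did. These were Nos2, with 0.68 (SE 0.17) and a limma adjusted p of 0.0418, and Cyba, with 0.29 (SE 0.08) and a limma adjusted p of 0.0486. Cybb had 0.35 (SE 0.11) and a limma adjusted p of 0.0914 in that fit. The call for each of these genes therefore depended on how the scan pair entered the model.

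**Figure D3:**
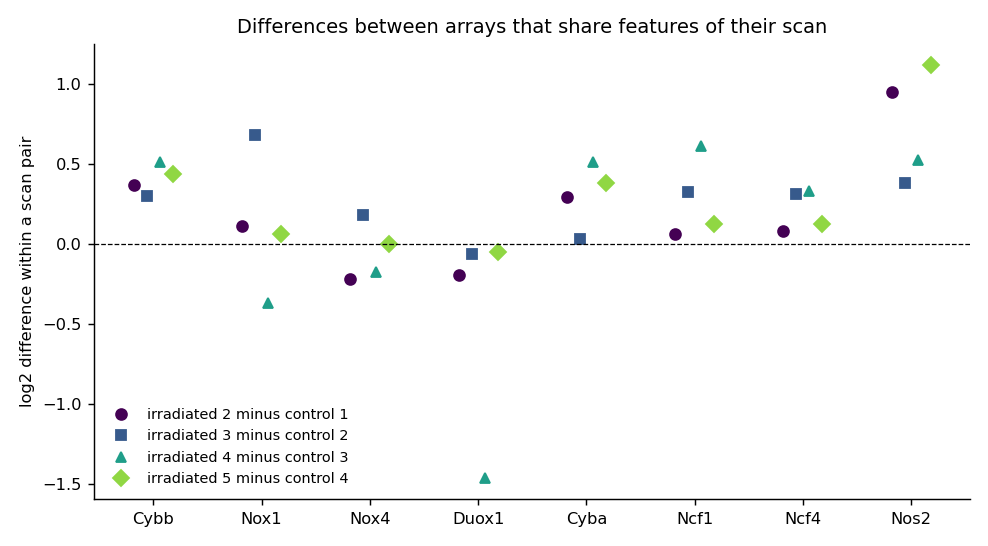
Difference between the irradiated and the control array of each of the 4 scan pairs on the log2 scale, with 1 marker shape per pair. Cybb, Cyba, Ncf1, Ncf4 and Nos2 lie above 0 in all 4 pairs, Duox1 lies below 0 in all 4, and Nox1 and Nox4 lie on both sides. Irradiated 1 belongs to no pair and is not drawn.

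The phagocyte subunits and Nos2 are expressed in macrophages, and the phagocyte subunits, Cyba among them, also in neutrophils. Of 12 macrophage markers 11 were measured, all well above background on every array (Cd68 was not measured), and 9 were higher and 2 lower in the irradiated arrays, with a median of 0.55. In 3 of the 11 (Lgals3, Mrc1 and Adgre1) all irradiated arrays lay above all control arrays, beside 3.40% of genes, and 6 of the 11 had an unadjusted p under 0.05, beside 9.94% of all probes. Galectin 3, Lgals3, passed the threshold with a difference of 0.74 (SE 0.12) and a limma adjusted p of 0.0457, and the brightest of the list, Chil3 and Lyz2, differed by 0.68 (SE 0.36) and 0.30 (SE 0.33) without passing it. The macrophage list had a mean between -0.19 and 0.37 in control arrays and between 0.30 and 0.36 in irradiated arrays. Of 10 neutrophil markers 9 were measured, 8 of them lower and 1 higher, with a median of -0.45, and 0 passed the threshold by limma (2 of the 9 at an unadjusted p under 0.05, beside 9.94% of all probes). The mean of this list spanned -0.69 to 0.63 in control arrays against -1.21 to 0.07 in irradiated arrays. Irradiated 1, where Cybb and Ncf4 were lowest, had a macrophage mean of 0.30, but the markers behind that mean went both ways. Among the irradiated arrays, Marco (13.75) and Siglecf (11.17) were highest there, the others at 10.99 to 12.25 and 9.69 to 10.21. Adgre1 (11.39) and Itgax (13.66) were lowest there, the others at 11.85 to 12.27 and 13.99 to 14.33. Fcgr1, Csf1r, Chil3 and Lgals3 were also lowest there, and Mrc1, Lyz2 and Mertk lay between. Irradiated 1 had a neutrophil mean of 0.07, the highest of the irradiated arrays, and a T cell list mean of -0.61, below the -0.31 to 0.49 of the others. The part of these cell types in the values of the oxidase genes was not tested.

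**Figure D4:**
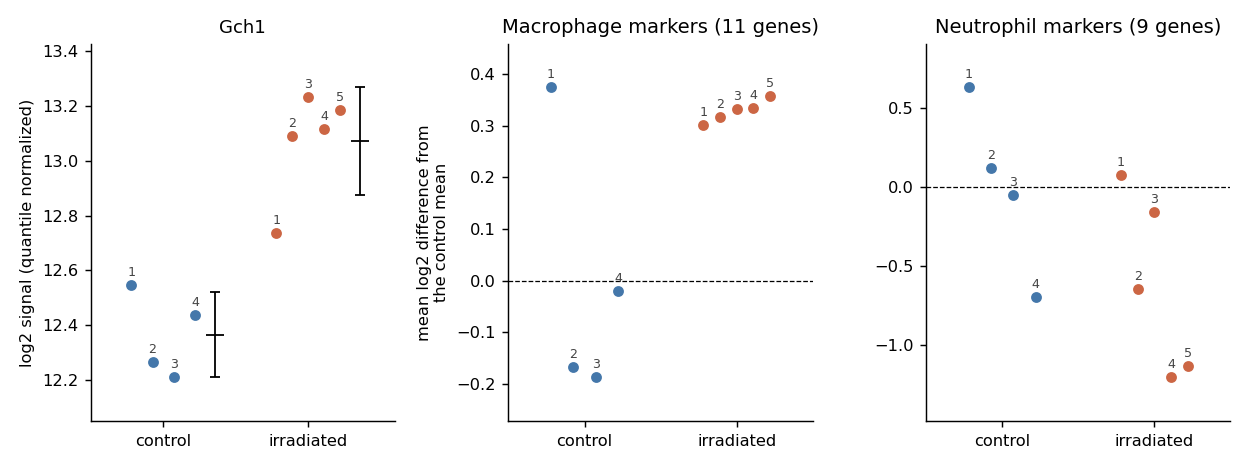
Left, log2 quantile-normalized signal of Gch1 on each array with the mean ± SD as a black bar. Middle and right, mean of the macrophage and of the neutrophil markers on each array, as a log2 difference from the control mean. All 5 irradiated arrays lie above all 4 control arrays for Gch1, while both marker lists overlap between the groups.

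The partners of these enzymes were read from 4 lists of 66 genes, of which 64 were measured. In the nitric oxide pathway, 1 of 21 genes passed the threshold, beside 0.333% of all probes. This was Gch1, GTP cyclohydrolase 1, which catalyzes the first step of tetrahydrobiopterin synthesis. Gch1 measured 12.54, 12.27, 12.21 and 12.44 on control arrays 1 to 4, and 12.74, 13.09, 13.23, 13.11 and 13.19 on irradiated arrays 1 to 5. All irradiated arrays were above all control arrays, and irradiated 1 was again the lowest of its group. The difference was 0.71 (SE 0.12), or 1.63-fold, with a limma adjusted p of 0.0456 and an exact permutation p of 0.0159. The call was lost without any 1 of control arrays 1 to 4 or irradiated arrays 2 to 5, where the limma adjusted p was 0.0674 to 0.147 and the difference 0.66 to 0.77. It was also lost with the authors' table, without an intensity trend and with the replicate block. There the difference was 0.57, 0.71 and 0.68, with a limma adjusted p of 0.311, 0.0982 and 0.353. Without irradiated 1 the difference was 0.79 with a limma adjusted p of 0.0116, and in the scan pair fits it was 0.79 and 0.76 with limma adjusted p-values of 0.0279 and 0.00194.

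The other members of that pathway had no call. In the list as a whole 16 were higher and 5 lower, with a median of 0.09. Nos3, the endothelial synthase, differed by -0.01 (SE 0.08, 95% interval -0.19 to 0.18). Nos1, the neuronal synthase, was well above background only on control 3 and irradiated 2, at 4.79 and 8.31, while the other arrays lay between 2.10 and 2.67.

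Among the oxidase partners, 0 of the 14 measured genes passed the threshold by limma, beside 0.333% of all probes. At an unadjusted p under 0.05, 1 of the 14 was counted, beside 9.94% of all probes. Of the list 7 were higher and 7 lower, and the median was -0.0031. Rac2, the GTPase of the phagocyte oxidase, differed by -0.06 (SE 0.17, 95% interval -0.44 to 0.31) and was lowest on irradiated 1 at 12.54. Its mean moved by less than those of Cybb, Cyba and Ncf1, and the difference between the genes was not tested. Duoxa2, the maturation factor of Duox2, was the partner whose irradiated arrays all lay below the control arrays, a pattern seen in 1.76% of genes. Its values were 3.89, 4.27, 4.41 and 4.87 on control arrays 1 to 4 and 3.52, 3.74, 3.36, 3.14 and 3.54 on irradiated arrays 1 to 5. It was well above background on only 2 control arrays and 1 irradiated array, and its difference of -0.90 (SE 0.24) had a limma adjusted p of 0.183. Duoxa1 was not measured.

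The other lists had no call by limma. Of the 8 peroxidases and dismutases, 4 were higher and 4 lower, with a median of 0.02. By limma 1 of these had an unadjusted p under 0.05, beside 9.94% of all probes. The 21 regulators were cytokines, receptors and transcription factors known to regulate these enzymes. Of them, 18 were higher and 3 lower, beside 51.9% higher among all genes, with a median of 0.21. Of these too, 1 had an unadjusted p under 0.05, beside the same 9.94%. With the scan pair as a fixed block 6 of the 64 partner genes passed, beside 2.81% of all probes, among them Noxa1, Gch1, Cat, Cd14 and Myd88. With it as a random block 6 of the 64 passed, close to the 7.37% of all probes, among them Duoxa2, Gch1, Il13 and Cat. Apart from Gch1 and Duoxa2, these were named after their values were seen. Il13 was well above background on none of the control arrays and on 3 of 5 irradiated arrays, which leaves its change uncertain. The mean of the irradiated arrays was 1.41-fold that of a control floor. That floor was the lowest signal well above background on each control array, or the probe's own where higher. The 1.41-fold value is a point estimate without sampling error, not a lower limit. The irradiated mean also includes arrays not well above background. The measured Il13 difference without a block was 1.48 (SE 0.51) with a limma adjusted p of 0.323, and its groups overlapped. In both scan pair fits Gch1 was higher in the irradiated arrays, and Cat, the catalase that removes hydrogen peroxide, was lower. The Cat differences were -0.69 (SE 0.09) and -0.64 (SE 0.11), with limma adjusted p-values of 0.0350 and 0.0114. Without a block the Cat difference was -0.57 (SE 0.18) with a limma adjusted p of 0.270, and its groups overlapped.

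**Figure D5:**
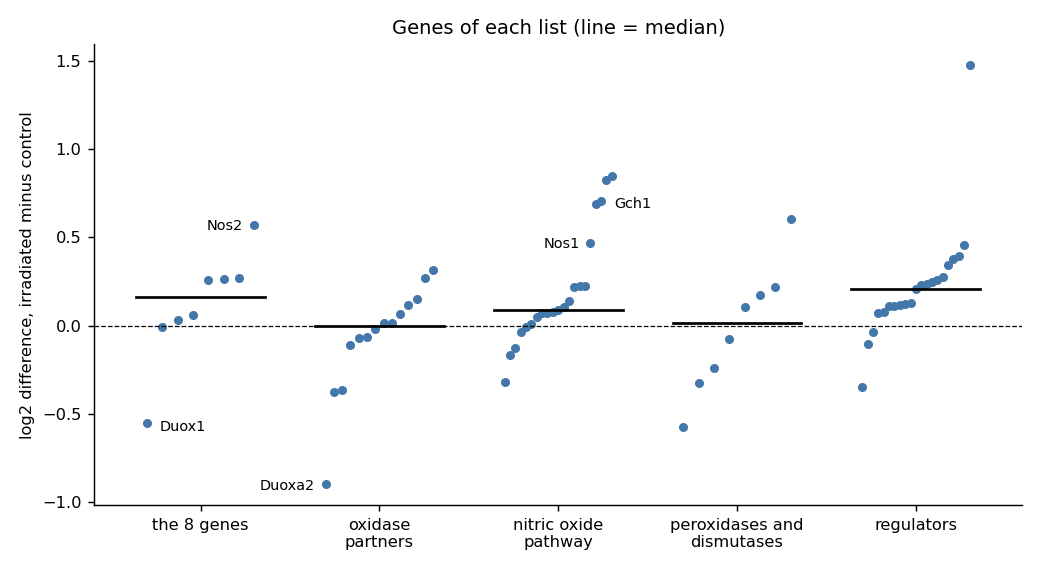
Log2 difference between irradiated and control arrays for the 8 measured oxidase and synthase genes and for the genes of the 4 partner lists, 1 point per gene in order of its difference, with the median of each list as a line. Gch1 (0.71) is the gene that passed the threshold, and Nos2 (0.57) and Duox1 (-0.55) are the ends of the set of 8.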

How the data were processed

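Labeled RNA was read on one-color Agilent arrays, 4 of control and 5 of irradiated lung, each of pooled RNA by the methods. For each array the authors deposited Feature Extraction intensity values, of which the background-corrected processed signal was used, with spot flags and positions (other columns). A deposited table of quantile-normalized intensity values served as an alternative. Outlier and control spots were left out, and probes over 1.4 times local background on at least 4 of 9 arrays were kept, 39302 of 39429. After log2 transformation the signals were quantile normalized across the arrays, and spots of a probe were averaged. Accessions were named through a RefSeq gene table (GRCm38.p6), which gave a symbol for 66.1% of probes. The genome build of the array design is not given in the sources used here.

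Groups were compared with limma 3.58.1 (R 4.3.3), whose variance prior followed intensity, with no covariates. P-values were adjusted by Benjamini-Hochberg over the 39302 probes, and the threshold was an adjusted p of 0.05. On simulated data with 39214 probes the fit recovered 42.6%, 84.8% and 95.5% of changes of 1, 2 and 3 on the log2 scale. Exact two-sided permutation tests were run for single genes. Partner genes were named if past the threshold, if their groups did not overlap, or as Nos1, Nos3, Duoxa1, Duoxa2 and Rac2, and values of some other list genes are not reported here. The genes and lists were chosen with earlier results of these data known. Precision is limited by the number of arrays.

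Alternatives included normexp (offset 50), 75th percentile scaling, the authors' table, a background filter on all 9 arrays or none, averaging a gene's probes, no intensity trend, array weights, a replicate block, the scan pair as a fixed or random block, and leaving out each array in turn. Array numbers in the titles are shared by the groups, but same-numbered arrays did not deviate together (r = 0.0622, -0.0170, -0.0486 and -0.167 across probes).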

Additional observations from a re-analysis of the deposited data

Results flagged for a closer look

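A sample far from the rest of its group was looked for in 70 groups of values, which were the 11 probes of the 8 genes, 7 partner genes and the means of 4 partner and 13 marker lists in each group. Chance marks about 1 in 20 such groups, and 12 values were marked, 6 of them on irradiated 1 and 4 on control 3. Irradiated 1 was low for Cybb (10.12, the others 10.72 to 10.96), Ncf4 (12.75, the others 13.41 to 13.66) and Gch1 (12.74, the others 13.09 to 13.23). It was also low in the list means, relative to the control mean on the log2 scale, of the oxidase partners (-0.19), the airway secretory markers (-2.71) and the cardiac muscle markers (-5.64). Control 3 was high for Duox1 (7.17, the others 5.32 to 5.57), Nos1 (4.79, the others 2.28 to 2.67) and the skeletal muscle markers (4.44), and low for the oxidase partners (-0.05, the others 0.01 to 0.02). Irradiated 2 was high for Nos1 (8.31, the others 2.10 to 2.58), and the mean of the nitric oxide pathway list, which holds Nos1, was high there too (0.52, the others 0.06 to 0.18). Causes were not tested.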

How the results depend on the processing

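Of the 8 genes, 0 passed the threshold under each alternative run except the scan pair as a fixed block, with 1 gene (Cybb, 0.41), and as a random block, with 2 genes (Cyba, 0.29, and Nos2, 0.68). Leaving out single arrays kept this count at 0 and gave 0 to 3 genes with groups that did not overlap. Partner genes past the threshold fell from 1 to 0 with the authors' table, without an intensity trend and with the replicate block, rose to 6 in both scan pair fits, and were 0 to 1 when single arrays were left out. The replicate block left 0 of the 8 genes past the threshold, and over all probes the calls ranged from 1 with it to 2898 with the random scan pair block, beside 131.

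The sign of Nox1 turned with normexp (-0.036), scaling to the 75th percentile (-0.15), the authors' table (-0.048) and array weights (-0.0065), and its difference ran from -0.34 to 0.46 when single arrays were left out. Nox4 turned to 0.016 with scaling to the 75th percentile and ran from -0.093 to 0.049 without single arrays. Ncf4 ran from -0.012 (without irradiated 3) to 0.21 (without irradiated 1). Cybb, Cyba, Ncf1, Nos2 and Duox1 kept their sign in all 20 alternatives, with differences outside the left-out arrays of 0.12 to 0.41, 0.18 to 0.40, 0.18 to 0.33, 0.29 to 0.75 and -0.75 to -0.27. The lowest of the first 4 ranges came from the authors' table. The cause of these changes was not tested. Signal over background limits Duox1, Duoxa2, Nos1, Il13 and the second Nox1 probe.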
